A study of Mus musculus with 30 samples.

Results

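The genes followed here were the 10 core genes of transforming growth factor beta (TGF-beta) and activin signalling in the fracture callus: the ligands Tgfb1, Tgfb2 and Tgfb3, the receptors Tgfbr1, Tgfbr2 and Tgfbr3, the activin subunits Inhba and Inhbb, the activin inhibitor Fst, and Tgfbi, which encodes a matrix protein induced by TGF-beta. They were taken by gene symbol from a table of read counts over 43629 Ensembl genes, of which 27445 had at least 1 read. The rule itself used no measured value, but the genes were chosen with earlier results of these data known. All 10 had reads in every library and passed the filter on low counts in every comparison. The study fractured the tibia of male C57BL/6J mice at 20 weeks of age by open osteotomy with an intramedullary nail. Diet-induced obese (DIO) mice had been raised on a high-fat diet and Lean mice on a lean control diet, and each group kept its diet until harvest. Callus RNA was sequenced at days 3, 5, 7 and 10 after fracture (written d3 to d10) in both diets and at d14 and d21 in DIO mice, from 3 mice each, which gave 12 Lean and 18 DIO libraries. Lean d14 and d21 were not analysed here. All the mice were fractured, so no group shows unfractured bone.

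TGF-beta ligands are secreted in latent form, held in the matrix by binding proteins, and after activation bind a complex of the type II receptor Tgfbr2 and the type I receptor Tgfbr1, which phosphorylates SMAD proteins that enter the nucleus. Activins are dimers of inhibin beta subunits that signal through a related pair of receptors, and follistatin, the product of Fst, traps them outside the cell. In a fracture these ligands are released by platelets, macrophages and bone matrix, and they are known for driving mesenchymal cells towards cartilage and matrix synthesis and for effects on osteoclasts.

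The libraries held 13247122 to 26365620 counted reads (median 16854427). Values are CPM, the counts scaled to library size with a trimmed mean of M-values (TMM) factor. The TMM factor was 0.779 in Lean d10 replicate 1, which stood apart, and 0.914 to 1.09 in the others. Marker genes of chondrocytes, osteoblasts and osteoclasts were present, as the label callus implies, and so were those of blood cells and skeletal muscle. The summed level of 6 chondrocyte markers ranged from 298 to 964 CPM at DIO d3, from 14859 to 34678 CPM at DIO d7 and from 68.0 to 645 CPM at DIO d21. In such bulk tissue, fewer cells of a type and less RNA per cell cannot be told apart.

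The 4 promoters below belong to genes whose expression changed from DIO d7 to d10 (values further on): Tgfb2, Inhba and Tgfbi, which fell, and Tgfbr1, which rose. The changed gene Fst had no entry in the promoter table. The windows are the bases just upstream of the annotated start, from RefSeq promoters of GRCm38.p6, on the gene's strand. Tgfb2 is shown at chr1:186705990-186706239 (minus strand), Inhba at chr13:16011601-16011850 (plus), Tgfbr1 at chr4:47352972-47353221 (plus) and Tgfbi at chr13:56609336-56609522 (plus, shortened where the GENCODE transcript starts earlier). Capitals mark 6 motifs searched on either strand: the TATA box as TATAAA, the GC box bound by Sp1 as GGGCGG, the CCAAT box, the SMAD binding element as CAGAC, the AP-1 motif as TGANTCA, and the cyclic AMP response element as TGACGTCA.
Tgfb2: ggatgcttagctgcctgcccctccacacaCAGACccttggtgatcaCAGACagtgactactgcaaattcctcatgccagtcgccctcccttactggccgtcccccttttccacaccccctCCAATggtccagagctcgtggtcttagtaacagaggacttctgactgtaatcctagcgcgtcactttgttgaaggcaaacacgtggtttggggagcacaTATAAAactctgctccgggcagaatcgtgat
Inhba: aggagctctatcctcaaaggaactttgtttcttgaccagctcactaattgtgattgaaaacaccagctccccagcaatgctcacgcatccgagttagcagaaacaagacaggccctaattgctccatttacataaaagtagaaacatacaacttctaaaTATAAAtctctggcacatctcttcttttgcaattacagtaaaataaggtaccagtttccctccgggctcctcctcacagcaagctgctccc
Tgfbi: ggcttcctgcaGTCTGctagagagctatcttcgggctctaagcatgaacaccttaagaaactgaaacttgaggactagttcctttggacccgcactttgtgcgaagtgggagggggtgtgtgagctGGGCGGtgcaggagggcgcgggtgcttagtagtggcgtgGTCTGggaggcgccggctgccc
Tgfbr1: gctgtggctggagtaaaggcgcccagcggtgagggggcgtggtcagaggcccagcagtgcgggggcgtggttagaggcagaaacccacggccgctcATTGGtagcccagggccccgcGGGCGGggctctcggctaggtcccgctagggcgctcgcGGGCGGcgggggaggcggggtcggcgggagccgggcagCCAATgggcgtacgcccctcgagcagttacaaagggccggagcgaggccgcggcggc
TATAAA was found in the windows of Tgfb2 and Inhba, with its first base 31 and 91 bases before the start, and in 12.4% of 32851 promoter windows of 250 bases. GGGCGG occurred at 2 places upstream of Tgfbr1 and at 1 upstream of Tgfbi, against a share of 32.7% of the 250-base windows and 22.2% of windows cut to 187 bases as for Tgfbi. CAGAC or its complement occurred at 2 places in each of Tgfb2 and Tgfbi, and was held by 42.2% of the 250-base and 34.2% of the 187-base windows. CCAAT or its complement stood at 1 place upstream of Tgfb2 and at 2 upstream of Tgfbr1, against 33.8% of windows. TGANTCA and TGACGTCA were in none of the 4 windows and in 6.75% and 1.55% of all 250-base windows. No marked stretches overlapped another motif. The table lists another Tgfbr1 window, at chr4:47385966-47386215, which held neither GGGCGG nor CCAAT and held CAGAC at 1 place. These letters were read as a description of the windows.

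Per kilobase of exon, which allows genes to be compared, Tgfbi had the highest level of the 10 genes in all 10 groups and Inhba the lowest. At DIO d3 the order of mean levels, in CPM per kilobase with the SD over 3 mice, was Tgfbi at 223 ± 44.2, Tgfb3 at 57.6 ± 1.86, Tgfb1 at 38.3 ± 6.14, Tgfbr2 at 15.0 ± 1.91, Tgfbr1 at 7.64 ± 0.354, Tgfb2 at 6.97 ± 2.06, Tgfbr3 at 6.41 ± 0.859, Inhbb at 4.48 ± 1.38, Fst at 3.98 ± 0.744 and Inhba at 1.13 ± 0.841. In this order Tgfbr1, Tgfb2 and Tgfbr3 did not differ beyond their spread, and neither did Inhbb and Fst. The Inhbb level also overlapped those of Tgfb2 and Tgfbr3. By DIO d21 Tgfbr2 (21.0 ± 4.42) stood second, beside Tgfb1 (20.2 ± 8.21), Tgfbr1 (15.1 ± 1.01) and Tgfb3 (13.6 ± 6.74). These levels overlapped, except that every mouse had a Tgfbr2 level above the highest Tgfbr1 level. Among the 3 ligands, Tgfb3 made up 56.2% ± 3.4 of the summed level per kilobase at DIO d3 and 36.3% ± 3.2 at d21, while Tgfb1 went from 37.1% ± 2.7 to 54.8% ± 1.9. Tgfb1 exceeded Tgfb3 in all 3 mice at DIO d21 and in none at DIO d3.

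**Figure D1:**
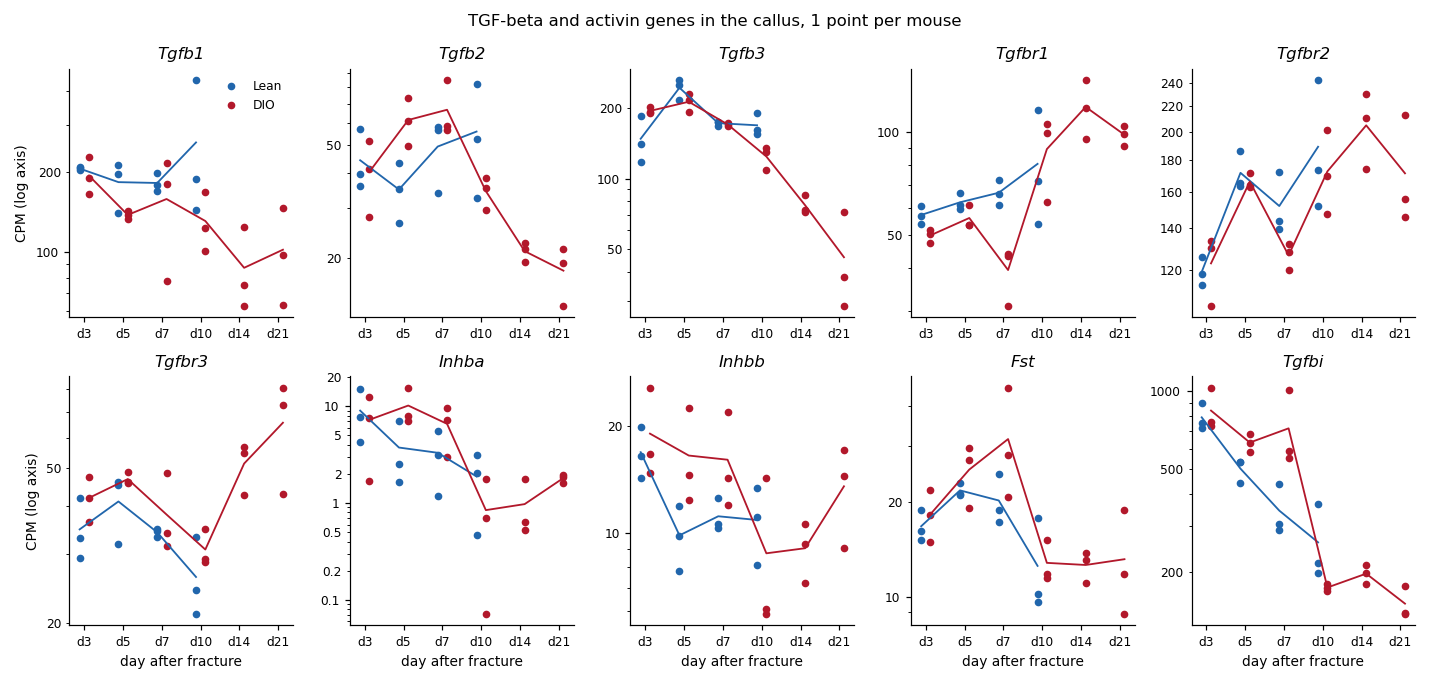
Level of each of the 10 genes (CPM, log axis) by day after fracture, 1 point per mouse, with Lean in blue, DIO in red and lines through group means. Tgfbi fell from 734 to 1034 CPM at DIO d3 to 138 to 176 CPM at DIO d21, while Tgfbr1 rose from 47.4 to 51.9 CPM to 91.4 to 105 CPM.

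The first comparison asked how the genes moved over healing in DIO mice. A test for any difference between the 6 DIO days (edgeR quasi-likelihood, Benjamini-Hochberg adjusted p under 0.05 as the threshold throughout) called 9 of the 10 genes, in a fit where 59.1% of 16995 genes were called. Tgfb1 was the exception (adjusted p = 0.0624), but it passed with DESeq2 (0.0156), without the filter on low counts (0.0118), and without DIO d7 replicate 2, d14 replicate 3 or d21 replicate 2 (0.00929 to 0.0266, edgeR). Inhbb passed narrowly (adjusted p = 0.0446) and was lost when any of 8 single mice was left out, replicates 1 and 3 of DIO d3, d5 and d14 and replicates 2 and 3 of d10. Between the ends of the series, DIO d21 against DIO d3, 8 of 10 genes were called, against 45.3% of all genes tested. The 5 that fell were Tgfb1, Tgfb2, Tgfb3, Inhba and Tgfbi, with 21.8% of all genes called lower. The 3 that rose were Tgfbr1, Tgfbr2 and Tgfbr3, with 23.5% called higher. In 6 of the 10 genes the mice of the 2 days did not overlap, as in 55% of all genes. The count of 8 was 4 without DIO d3 replicate 3 and 5 without DIO d21 replicate 1. The median log2 fold change of the 10 was -0.71, beside 0.03 over all genes tested.

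Of the ligands, Tgfb3 measured 190, 202 and 192 CPM in the 3 mice at DIO d3, 130, 135 and 109 CPM at d10, 71.8, 73.5 and 85.4 CPM at d14 and 28.5, 71.9 and 37.9 CPM at d21. The d3 and d21 mice did not overlap, and the level at d21 was 4.23-fold lower (log2 fold change -2.08, SE 0.23, adjusted p = 3.69e-06 by edgeR). Tgfb3 was also the 1 gene of the 10 called from DIO d14 to d21 (log2 fold change -0.74, SE 0.23, adjusted p = 0.0307 by edgeR), where 19.6% of all genes were called and 9.03% lower, although the highest d21 mouse lay within the d14 range. That call depended on single mice: it was lost without DIO d14 replicate 1 (-0.80) or 3 (-0.66) and without DIO d21 replicate 1 (-0.50) or 3 (-0.62).

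Tgfb2 stood at 27.9, 41.4 and 51.7 CPM at DIO d3, at 85.0, 56.8 and 58.3 CPM at d7, at 38.5, 29.6 and 35.3 CPM at d10 and at 13.6, 21.5 and 19.2 CPM at d21. All d10 mice were below all d7 mice, and all d21 mice below all d3 mice. It was 2.23-fold lower at d21 than at d3 (log2 fold change -1.16, SE 0.23, adjusted p = 0.0006, edgeR). Tgfb1, the ligand carried by platelets and macrophages, measured 165, 226 and 189 CPM at DIO d3 and 63.1, 145 and 97.1 CPM at d21. Its fall of 0.92 on the log2 scale (SE 0.34, adjusted p = 0.0344, edgeR) was lost when 1 of 4 single mice was left out: without DIO d3 replicate 2 or 3, or without DIO d21 replicate 1 or 3, adjusted p was 0.0573 to 0.135.

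The receptors went the other way. Tgfbr1, the type I kinase, measured 50.5, 51.9 and 47.4 CPM at DIO d3, 44.0, 43.5 and 30.98 CPM at d7, 99.7, 62.3 and 106 CPM at d10, and 99.1, 91.4 and 105 CPM at d21. Each d21 mouse exceeded each d3 mouse, and the level was 1.97-fold higher (log2 fold change 0.98, SE 0.19, adjusted p = 0.000518, edgeR). The type II receptor Tgfbr2 had 133, 130 and 105 CPM at d3 against 146, 213 and 156 CPM at d21, a smaller difference without overlap (log2 fold change 0.48, SE 0.16, adjusted p = 0.0231, edgeR). Tgfbr3, the co-receptor betaglycan that presents ligand, had 47.6, 42.0 and 36.3 CPM at d3 and 72.9, 80.8 and 43.0 CPM at d21. One d21 mouse lay within the d3 range (log2 fold change 0.64, SE 0.21, adjusted p = 0.0181, edgeR). The last pair of calls rested on single mice: without DIO d21 replicate 2 the log2 fold change was 0.28 for Tgfbr2 and 0.45 for Tgfbr3, and without DIO d3 replicate 3 it was 0.36 and 0.53, none of them past the threshold. The Tgfbr3 call was lost too without DIO d3 replicate 2 (0.62) or DIO d21 replicate 1 (0.53).

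Of the activin genes, Inhba, the beta A subunit, was the least abundant, with 28 to 205 reads per library at DIO d3 and 31 to 34 at d21. That corresponded to 1.68, 7.63 and 12.4 CPM at d3 and 1.96, 1.88 and 1.61 CPM at d21. The lowest d3 mouse lay within the d21 range, and the call (log2 fold change -1.99, SE 0.69, adjusted p = 0.0254, edgeR) was lost without DIO d3 replicate 3 (-1.39), DIO d21 replicate 1 (-2.09) or DIO d21 replicate 3 (-1.94). Inhbb, the beta B subunit, and Fst were not called between these days, at log2 fold changes of -0.49 (SE 0.35, adjusted p = 0.267) and -0.48 (SE 0.29, adjusted p = 0.19, edgeR).

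Tgfbi, the matrix protein, showed the largest fitted change of the 10 between these days. It measured 1034, 758 and 734 CPM at DIO d3, 632, 582 and 686 CPM at d5, 589, 1013 and 553 CPM at d7, 174, 179 and 169 CPM at d10, 198, 180 and 212 CPM at d14 and 138, 176 and 138 CPM at d21. All mice up to d7 lay above all mice from d10 on. At d21 it was 5.59-fold lower than at d3 (log2 fold change -2.48, SE 0.22, adjusted p = 4.61e-07, edgeR).

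**Figure D2:**
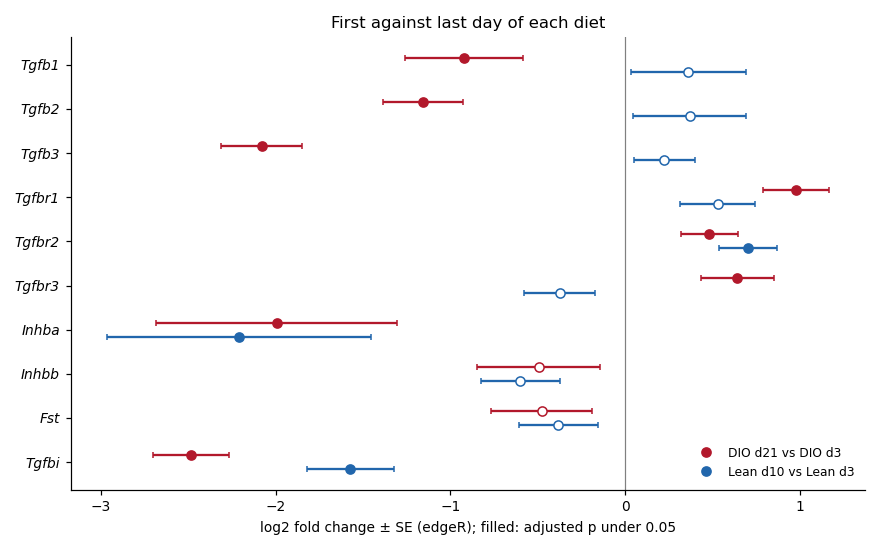
Log2 fold change with its SE (edgeR) of the 10 genes between the first and last day of each diet, filled where adjusted p was under 0.05. In DIO mice (red, d21 against d3) the ligands and Tgfbi lay between -2.48 and -0.92 and the 3 receptors between 0.48 and 0.98; in Lean mice (blue, d10 against d3) Tgfbr2, Inhba and Tgfbi were called, and the 2 spans of days differ.

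The step between neighbouring days with the most calls among the 10 genes was DIO d7 to d10. There 5 of 10 genes were called, against 13% of all genes, with 4 lower (7.01% of all genes) and 1 higher (6.01%). The d7 and d10 mice did not overlap in 7 of 10, against 27.1% of all genes. Tgfbi fell 4.13-fold (log2 fold change -2.05, SE 0.22, adjusted p = 1.08e-05), and Tgfb2 fell 1.93-fold (-0.95, SE 0.23, adjusted p = 0.00918, edgeR). Fst, the activin trap, went from 28.1, 45.9 and 20.6 CPM to 11.5, 15.1 and 11.8 CPM, without overlap (log2 fold change -1.30, SE 0.29, adjusted p = 0.00646, edgeR). Inhba went from 7.11, 9.63 and 2.96 CPM to 1.76, 0.0721 and 0.700 CPM, the middle of these resting on 1 read (log2 fold change -2.96, SE 0.76, adjusted p = 0.0149, edgeR). Without DIO d10 replicate 2, the mouse with that read, the Inhba value was -2.42 and the Tgfb2 value -0.85, both short of the threshold, which left 3 calls. The Tgfb2 call was lost as well without DIO d7 replicate 1 (-0.74), and the Inhba call without DIO d7 replicate 2 (-2.58) or DIO d10 replicate 3 (-2.85). Tgfbr1 rose over the same step (log2 fold change 1.18, SE 0.19, adjusted p = 0.000533, edgeR), with all 3 d10 mice above all d7 mice.

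No gene of the 10 was called between DIO d3 and d5 (1.68% of all genes called), between d5 and d7 (0.0177%) or between d10 and d14 (0.759%) by edgeR. Unadjusted p was under 0.05 for 2, 2 and 4 genes in these steps, against 13.7%, 14.2% and 17.7% of all genes, and DESeq2 called 0, 0 and 1, against 3.38%, 2.16% and 3.52%. From d10 to d14 the largest values were -0.70 for both Tgfb2 and Tgfb3 (SE 0.23, adjusted p = 0.138 for each) and 0.73 for Tgfbr3 (SE 0.21, adjusted p = 0.0995, edgeR). The d10 and d14 mice did not overlap in these 3 genes or in Tgfbi, 4 of 10 against 22.5% of all genes. The count without overlap was 4 from d3 to d5, 3 from d5 to d7 and 1 from d14 to d21. For those steps the share over all genes is not given here.

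The marker genes moved over the same step. From DIO d7 to d10, 5 of 6 chondrocyte markers were called lower and all 4 osteoclast markers higher. The summed chondrocyte level was 14859 to 34678 CPM at d7 and 2346 to 6670 CPM at d10, and the osteoclast sum was 888 to 1626 CPM and 9564 to 12575 CPM. Fibroblast and myofibroblast markers summed to 1755 to 5011 CPM at d7, 1166 to 1360 CPM at d10 and 355 to 567 CPM at d21, and 2 of 5 were called lower from d7 to d10. Between d3 and d21, all 5 neutrophil markers, all 4 erythroid, all 3 B cell and all 4 osteoclast markers were called higher and 4 of 5 fibroblast markers lower, while 2 of 6 osteoblast markers were higher and 3 lower. None of these lists had a marker at 0 reads in all mice of a group. The part of these shifts in the values of the TGF-beta and activin genes was not tested.

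**Figure D3:**
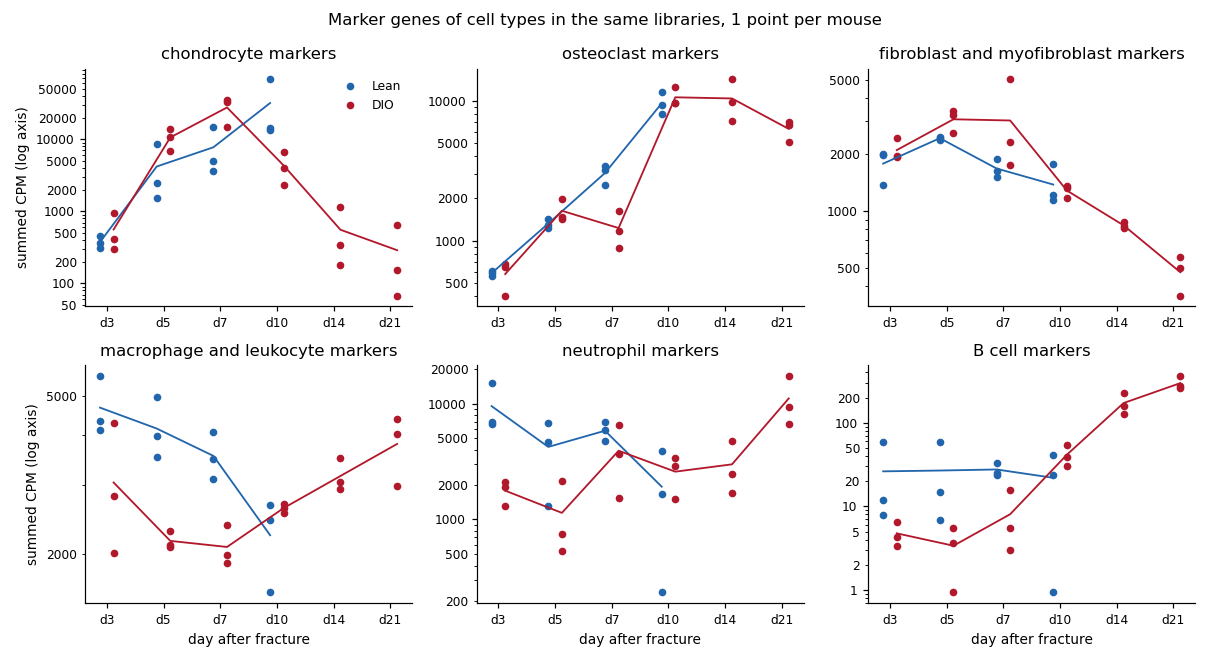
Summed CPM (log axis) of marker genes of 6 cell types by day after fracture, 1 point per mouse, Lean in blue and DIO in red. The chondrocyte sum peaked at d7 in DIO mice (14859 to 34678 CPM), and the osteoclast sum rose between d7 and d10 in DIO mice. In Lean mice the mean chondrocyte sum was highest at d10 (13478 to 67767 CPM, median 14284.5), overlapping d7 (3601 to 14658 CPM). None of the 6 chondrocyte markers was called from Lean d7 to d10.

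In Lean mice the same question could be asked from d3 to d10. The test for any difference between the 4 Lean days called 3 of 10 genes, Tgfb3 (adjusted p = 0.0355), Tgfbr2 (0.044) and Tgfbi (0.00556, edgeR), against 19% of 16471 genes tested. Leaving out single mice brought that count down to 1 for 7 of the 12 mice: Lean d3 replicates 1 and 2, d5 replicates 1 and 3, d7 replicates 1 and 2 and d10 replicate 2. Lean d10 against Lean d3 called 3 genes, against 29.3% of all genes: Tgfbr2 was higher (15.2% of all genes) and Inhba and Tgfbi lower (14.1%). The mice of both days did not overlap in 4 of 10, the called 3 and Inhbb, against 42.8% of all genes.

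Tgfbi measured 899, 724 and 756 CPM at Lean d3, 443, 530 and 532 CPM at d5, 438, 291 and 307 CPM at d7 and 365, 198 and 217 CPM at d10. Its level was thus lower at each later day on average, and d10 lay 2.97-fold below d3 without overlap (log2 fold change -1.57, SE 0.25, adjusted p = 0.00126, edgeR). Tgfbr2 had 118, 113 and 126 CPM at d3 and 152, 173 and 243 CPM at d10 (log2 fold change 0.70, SE 0.17, adjusted p = 0.00954, edgeR). Inhba had 15.1, 7.67 and 4.25 CPM at d3 and 3.13, 0.469 and 2.04 CPM at d10, without overlap (log2 fold change -2.21, SE 0.76, adjusted p = 0.0454, edgeR). Its call was lost for 6 of the 12 mice left out singly, with values of -2.33 to -1.62: Lean d3 replicates 1 and 2, d5 replicate 2, d7 replicate 1 and d10 replicates 2 and 3.

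The 3 ligands were not called between Lean d3 and d10. Tgfb1 measured 206, 203 and 208 CPM at d3 and 442, 187 and 143 CPM at d10, where the high value came from the mouse whose library stood apart. With it the log2 fold change was 0.36 (SE 0.33, adjusted p = 0.426), and without it -0.27 (adjusted p = 0.309, edgeR). Tgfb2 likewise turned from 0.37 to -0.02 without this mouse. Without it 5 genes rather than 3 were called, Tgfbr1 (0.76) and Inhbb (-0.77) being added.

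Between neighbouring Lean days edgeR called none of the 10 genes, where 0.449% (d3 to d5), 0% (d5 to d7) and 2.73% (d7 to d10) of all genes were called. Unadjusted p was under 0.05 for 4, 2 and 1 genes, against 14.8%, 5.62% and 26% of all genes, and DESeq2 called 2, 0 and 0, against 3.9%, 0.244% and 12.3%. From d3 to d5 the mice did not overlap in 5 of the 10 genes, against 23.4% of all genes. The count was 2 from d5 to d7 and 0 from d7 to d10, with the share over all genes not given here. The largest d3 to d5 difference by p was that of Tgfb3, which had 140, 118 and 186 CPM at d3. At d5 it had 265, 218 and 252 CPM (log2 fold change 0.76, SE 0.17, adjusted p = 0.0759, edgeR). It passed the threshold with DESeq2 (0.00664) and without Lean d3 replicate 3 (0.0325, edgeR).

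The diets were then compared within each day, to ask whether obesity altered the level of these genes. EdgeR called none of the 10 at d3 (0% of all genes called), d5 (1.08%), d7 (2.32%) or d10 (0%). Unadjusted p was under 0.05 for 1, 5, 3 and 3 of them, against 15.1%, 18.5%, 16.6% and 7.05% of all genes. DESeq2 called 0, 1, 2 and 0, against 4.71%, 7.31%, 6% and 0.313%. The diets did not overlap in 2 of 10 genes at d3 (20.8% of all genes), 3 at d5 (23.2% of all genes), 3 at d7 (22.1%) and 2 at d10 (14.2%). At d5, Tgfb2 had 73.2, 49.9 and 61.1 CPM in DIO mice and 26.6, 35.0 and 43.2 CPM in Lean mice. All DIO mice were above all Lean mice (log2 fold change 0.81, SE 0.20, adjusted p = 0.099, edgeR), and DESeq2 called it (0.00718). It was called by edgeR as well without the filter on low counts (0.0454) or without Lean d5 replicate 3 (log2 fold change 1.00, adjusted p = 0.0333), a mouse without which Inhba was also called (2.29). Over all single mice left out, the Tgfb2 value ran from 0.65 to 1.00, with adjusted p up to 0.307 (edgeR). The Inhba value ran from 0.98 to 2.29, with adjusted p up to 0.553 (edgeR).

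At d7, Tgfbi had 589, 1013 and 553 CPM in DIO mice and 438, 291 and 307 CPM in Lean mice, again without overlap. The log2 fold change was 1.07 (SE 0.27, adjusted p = 0.0813 by edgeR and 0.00255 by DESeq2). Tgfbr1 ran opposite at d7, with 44.0, 43.5 and 30.98 CPM in DIO mice and 66.1, 61.2 and 72.3 CPM in Lean mice (log2 fold change -0.74, SE 0.19, adjusted p = 0.0763 by edgeR and 0.0209 by DESeq2). Both were called when all 30 libraries shared 1 fit (adjusted p of 0.0109 for Tgfbi and 0.0426 for Tgfbr1) and without the filter on low counts. Without DIO d7 replicate 3, edgeR called Tgfbi (adjusted p = 0.042). Over all single mice left out, the Tgfbi value ran from 0.75 to 1.28, with adjusted p up to 0.34 (edgeR). The Tgfbr1 value ran from -0.81 to -0.58, with adjusted p of 0.0622 to 0.209 (edgeR). Markers differed between the diets at d7 too: all 3 osteoclast markers tested and 3 of 6 macrophage and leukocyte markers were called lower in DIO mice, and 2 of 6 chondrocyte markers higher. The osteoclast sum was 888 to 1626 CPM in DIO mice and 2505 to 3408 CPM in Lean mice, and the chondrocyte sum 14859 to 34678 CPM and 3601 to 14658 CPM. Their part in the values of Tgfbi and Tgfbr1 was not tested. At d10 the Tgfbi difference had the other sign, with 174, 179 and 169 CPM in DIO mice below 365, 198 and 217 CPM in Lean mice (log2 fold change -0.57, SE 0.24, adjusted p = 0.686, edgeR).

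**Figure D4:**
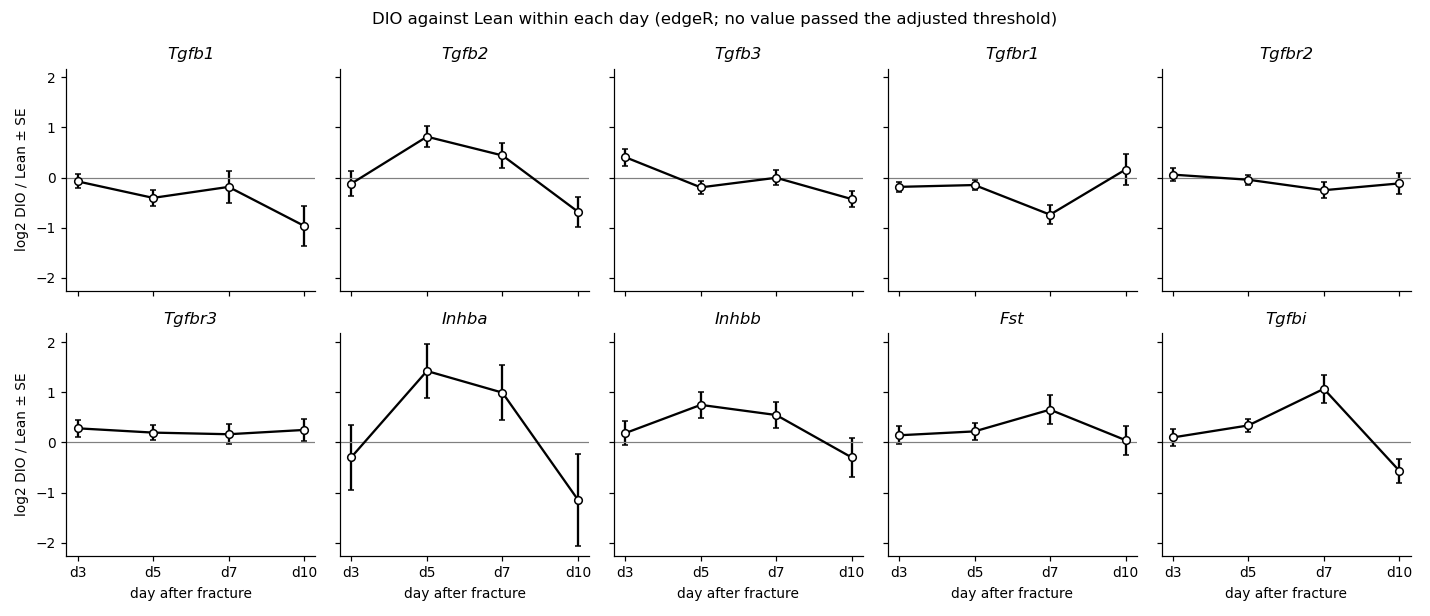
Log2 ratio of DIO to Lean with its SE (edgeR) for the 10 genes at d3, d5, d7 and d10; open circles mark that no value passed the adjusted threshold. Tgfbi went from 1.07 at d7 to -0.57 at d10, and Tgfbr1 from -0.74 to 0.16.

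Whether the diet difference itself changed was tested as an interaction. Across d3 to d10 edgeR called none of the 10 genes, against 1.65% of 17057 genes, and Tgfbi came nearest (adjusted p = 0.0538). Unadjusted p was under 0.05 for 4 of them (18.4% of all genes), and DESeq2 called 3 (6.75%). For the step from d7 to d10, 1 of 10 was called, against 5.07% of all genes, 3.37% lower and 1.7% higher. This was Tgfbi, whose DIO to Lean ratio fell by 1.64 on the log2 scale (SE 0.34, adjusted p = 0.00858, edgeR). The call held under each alternative tried, with -1.85 to -1.30 when single mice were left out. Tgfbr1 had 0.90 (SE 0.30, adjusted p = 0.0794), Tgfb2 -1.12 (SE 0.42, adjusted p = 0.117) and Inhba -2.16 (SE 1.19, adjusted p = 0.285, edgeR). Tgfbr1 passed without Lean d10 replicate 3 (1.25) or DIO d10 replicate 2 (1.10), and Tgfb2 without Lean d10 replicate 2 (-1.40). This test used the same libraries as the d7 and d10 comparisons above, so the values are not independent of them. Over the same step 5 of 6 chondrocyte markers were called lower and 3 of 4 osteoclast markers higher in the same interaction, and the part of these shifts in the Tgfbi value was not tested.

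Other genes of the pathway were read from 6 lists holding 57 genes, of which 52 were tested in the DIO fit. These lists too were chosen with earlier results of these data known. Between DIO d3 and d21, 24 of the 52 were called lower and 2 higher, beside 21.8% and 23.5% of all genes, with a median log2 fold change of -0.63 beside 0.03. Of 13 genes for latency and activation, 7 were lower and none higher (median -0.89). They included Ltbp2, a latent TGF-beta binding protein family member (-3.07), the fibrillin Fbn1 (-1.60), and Emilin1, an elastic fibre protein (-1.92). Of 11 response genes, 7 were lower and none higher (median -1.23), among them the smooth muscle actin Acta2 (-2.92) and fibronectin Fn1 (-1.23). Acta2 and Postn of this list also belong to the 5 fibroblast and myofibroblast markers, of which 4 were called lower over these days. The part of that shift in the values of the response genes was not tested. The activin inhibitor Fstl3 (-2.27) and Wfikkn2, an antagonist of growth differentiation factors (-2.54), fell among 3 secreted antagonists.

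Receptors, SMADs and other ligands outside the 10 genes were read over the same DIO days. From d3 to d21, 21.8% of all genes were called lower and 23.5% higher. Of 9 other receptors and co-receptors, 3 were called lower and 2 higher (median -0.59). The activin type I receptor Acvr1b (-0.86) and the endothelial receptor Acvrl1 (-0.95) fell. Of 4 endothelial markers, 2 were called lower and none higher over these days, and their part in the Acvrl1 value was not tested. Acvr1c, a type I receptor known from adipose tissue, rose (3.41). All 3 adipocyte markers were called higher over the same days, summing to 4.48 to 17.1 CPM at d3 and 165 to 225 CPM at d21, and their part in the Acvr1c value was not tested. Of 11 SMADs and nuclear regulators, 3 were lower, including the repressors Tgif1 (-0.83) and Ski (-0.86), and none higher (median -0.22). Of 7 other ligands tested, Gdf11 (-0.68) and the inhibin alpha subunit Inha (-0.91) fell, calls that were lost without DIO d21 replicate 1 (-0.49 and -0.69).

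In Lean mice between d3 and d10 the 6 lists were mixed, with 13 of the 50 genes tested higher and 8 lower (15.2% and 14.1% of all genes; median 0.01 beside 0.02). Fn1 (2.15) and Ccn2, a matrix regulator abundant in cartilage (2.45), rose, and all 6 chondrocyte markers were called higher over these days. Acta2 (-0.78, but -0.59 and not called without Lean d3 replicate 1), Acvr1b (-1.17), Tgif1 (-0.86) and Nrros, which anchors latent TGF-beta on macrophages (-1.51), fell, and of 6 macrophage and leukocyte markers 4 were called lower (Ptprc, Adgre1, Itgam and Lyz2) and the other two, Cd68 and Csf1r, higher. All 6 osteoblast and all 4 osteoclast markers were called higher over these days as well, and the part of these shifts in the values of the pathway genes was not tested. Gdf11 (0.87) and Zfyve9, a SMAD anchor (0.74), rose. In the interaction from d7 to d10, 8 of 51 genes tested were called, 7 lower and 1 higher (5.07% of all genes called, 3.37% lower and 1.7% higher). Among these, Fn1 (-3.03), Ccn2 (-2.29), Ltbp2 (-1.97), Emilin1 (-1.82) and Fstl3 (-1.65) were lower and Nrros (1.41) higher. The Fstl3 call was lost for 8 of 24 mice left out singly (Lean d7 replicates 2 and 3, Lean d10 replicate 1, DIO d7 replicates 1 and 2 and all 3 DIO d10 mice; -1.86 to -1.16), Nrros without Lean d7 replicate 2 (1.30), Lean d10 replicate 1 (1.28) or DIO d10 replicate 1 (1.26), and Ccn2 without DIO d10 replicate 1 (-2.11). Within d7, Fn1 (1.78), Emilin1 (1.01) and Ccn2 (0.95) were called higher in DIO than in Lean mice. All 3 calls were lost without Lean d7 replicate 1 or 2, that of Ccn2 also without DIO d7 replicate 1 or 2, and that of Emilin1 also without Lean d7 replicate 3 or DIO d7 replicate 2. With all 30 libraries in 1 fit Ccn2 was not called (0.94, adjusted p = 0.222, edgeR). The marker shifts at d7 given above stood beside these calls.

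**Figure D5:**
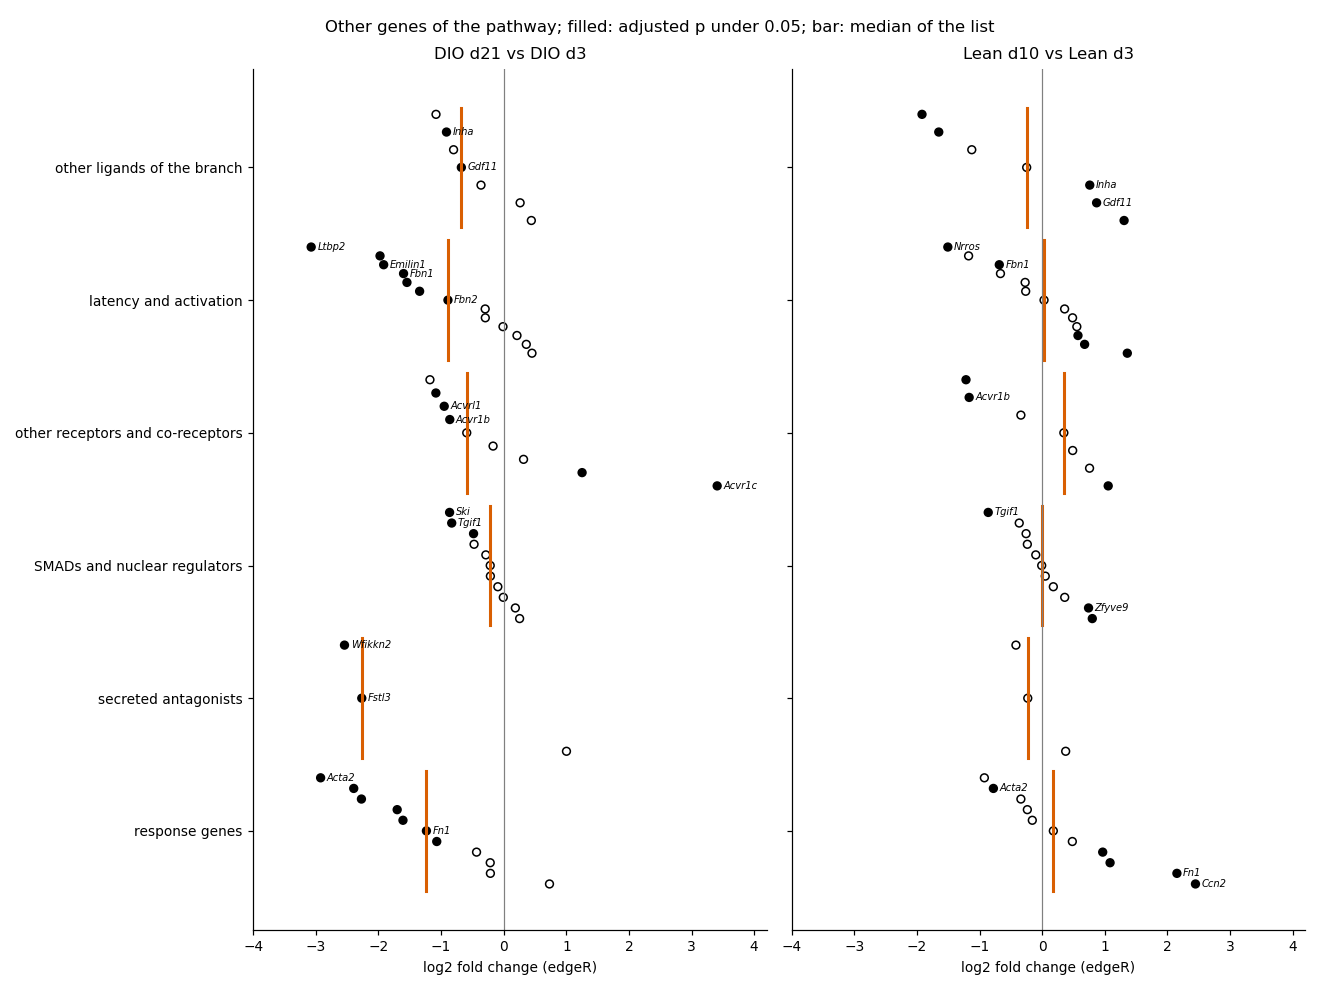
Log2 fold change (edgeR) of the other pathway genes in 6 lists, from d3 to d21 in DIO mice (left) and from d3 to d10 in Lean mice (right), filled where adjusted p was under 0.05, with orange bars at list medians. In DIO mice the medians lay between -2.27 and -0.22, and in Lean mice between -0.25 and 0.35.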

How the data were processed

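Poly(A) RNA of 30 fracture calluses was sequenced with a stranded kit. Per the labels and the study's methods, the authors trimmed reads, aligned them with HISAT2 2.1.0 to GRCm38 and counted them per gene with HTSeq; the deposited table holds raw counts, 1 column per library. The HTSeq version, strand option and annotation are not given in the sources used here. Of 43629 identifiers, 42548 were found in GENCODE M21, which gave symbols and exon lengths. Exons of Tgfb2, Tgfb3, Tgfbr3 and Fst overlap other annotated genes by 124, 420, 297 and 115 bases, so a few of their reads may be shared. Counts were analysed with edgeR 4.0.16 (R 4.3.3): filterByExpr, TMM factors, quasi-likelihood fits of all Lean or all DIO days, of both diets within a day, and of d3 to d10 with diet and day interacting, with p-values adjusted over all genes tested. CPM used TMM factors over all libraries, and correlations used log2 CPM with a prior count of 2. DESeq2 1.42.0 and the other alternatives are given below. Scripts were tested on simulated data. No 2 libraries of a group agreed within sampling noise (chi-square per degree of freedom of 12.8 or more). Depth of 13247122 to 26365620 counts makes counting error small for all genes but Inhba, which had 1 to 276 counts. The member genes, pathway lists and marker lists were chosen with earlier results of these data known. All 10 members were named; of each pathway list, up to 3 genes with the smallest p in the test over Lean days and up to 3 in that over DIO days. One gene this rule names is not reported here. One of the 57 pathway genes was not in the table used and is not analysed here.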

Additional observations from a re-analysis of the deposited data

Results flagged for a closer look

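One result stood out because the effect of diet differed between days by a direct test. The DIO to Lean ratio of Tgfbi changed by -1.64 on the log2 scale from d7 to d10 (edgeR interaction, SE 0.34, adjusted p = 0.00858). DIO mice had 553 to 1013 CPM and Lean mice 291 to 438 CPM at d7, and DIO mice 169 to 179 CPM and Lean mice 198 to 365 CPM at d10. The groups did not overlap on either day and the order was turned. Neither difference within a day was called (adjusted p = 0.0813 at d7 and 0.686 at d10, edgeR). Of all genes tested, 22.1% at d7 and 14.2% at d10 likewise had no overlap between the diets. Over all 4 shared days the interaction of this gene had an adjusted p of 0.0538 (edgeR). Leaving out single mice gave -1.85 to -1.30.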

How the results depend on the processing

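Counts of the 10 genes called were recomputed under each alternative. With DESeq2 they rose from 3 to 6 for any Lean day, from 0 to 2 for Lean d5 against d3, from 3 to 4 for Lean d10 against d3, from 9 to 10 for any DIO day, from 0 to 1 for DIO d14 against d10, from 0 to 1 and 2 for the diets at d5 and d7, and from 0 to 3 for the diet difference over d3 to d10. Without the filter on low counts the last 3 were 1, 2 and 1. In that setting Tgfb1 was also added for any DIO day, and Tgfbr2 lost the calls named below. With all 30 libraries in 1 fit the diets at d7 gave 2 and the diet difference over d3 to d10 gave 1, and with RLE size factors the latter gave 1. Leaving out single mice gave 1 to 4 for any Lean day, 0 to 1 for Lean d5 against d3 and d10 against d7, 2 to 5 for Lean d10 against d3, 8 to 10 for any DIO day, 3 to 7 for DIO d10 against d7, 0 to 1 for DIO d14 against d10 and d21 against d14, 4 to 8 for DIO d21 against d3, 0 to 2 and 0 to 1 for the diets at d5 and d7, 0 to 2 for the diet difference over d3 to d10 and 1 to 2 for its change from d7 to d10. A mouse left out leaves a group of 2.

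Directions turned in 3 cases, none of them called: in Lean d10 against d3 without Lean d10 replicate 1, Tgfb1 was -0.27 (range over mice left out -0.27 to 0.63) and Tgfb2 -0.0201 (to 0.62), and in DIO d10 against d7 Tgfb1 was 0.0166 without DIO d7 replicate 3 (range -0.60 to 0.0166). Fst was added in Lean d10 against d7 and against d3 (-0.73) without Lean d10 replicate 3, and in DIO d21 against d3 (-0.84) without DIO d21 replicate 2. Without the filter Tgfbr2 lost its calls for any Lean day (adjusted p = 0.0562) and for DIO d21 against d3 (0.0531, edgeR). Without TMM factors 93 of 100 group means moved by less than 1 SD. The causes were not tested.

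Replicate numbers name different mice. Same-numbered mice deviated together (every correlation over 0.1) only for Lean d7 and d5 among 14 pairs of groups, and there and for DIO d14 and d10 all 6 samples correlated best with their own number, a hint from the data only. With the replicate number as a block the 10 genes gave the same number of calls in all 18 tests, 3 for any Lean day, 9 for any DIO day, 5 for DIO d10 against d7, 8 for DIO d21 against d3 and 1 for the change from d7 to d10. Over all genes the block moved the calls from 74 to 199 for Lean d5 against d3, from 450 to 1479 for Lean d10 against d7, from 129 to 45 for DIO d14 against d10, from 0 to 325 for the diets at d3 and from 170 to 0 at d5.

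Calls over all genes differed by more than 1.5 times in other fits too. DESeq2 gave 4847 for 3132 for any Lean day, 605 for 74, 37 for 0 and 1827 for 450 in the Lean steps, 575 for 285, 346 for 3 and 552 for 129 in the DIO steps to d5, d7 and d14, 728 for 0, 1150 for 170, 944 for 366 and 47 for 0 between diets, 1151 for 282 over d3 to d10 and 1496 for 865 for the change. Without the filter they were 169 and 478 for the first Lean and DIO steps, 271 and 329 for the DIO steps to d7 and d14, 515, 565, 724 and 29 between diets and 503 over d3 to d10. In 1 fit of all libraries they were 202, 2 and 1529 in the Lean steps, 1 and 2 in the DIO steps to d7 and d14, and 63, 675 and 3 between diets at d5, d7 and d10.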

Other observations

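Some genes had a pattern close to that of a member over the 30 libraries. Among 14807 genes with a mean of at least 1 CPM, Tgfb3 was closest to Dbn1, an actin-binding protein (Pearson r = 0.97, Spearman rho = 0.91), Thy1, a surface protein of fibroblasts (0.97 and 0.85), and Col18a1, a basement membrane collagen (0.96 and 0.83). Tgfb2 was closest to Col6a3, a collagen VI chain (0.93 and 0.92), Tmbim1 (0.92 and 0.89) and Ugdh, which makes a precursor of glycosaminoglycans (0.91 and 0.92). Tgfbi was closest to the extracellular superoxide dismutase Sod3 (0.95 and 0.92), the acute phase gene Serpina3n (0.95 and 0.92) and Prg4, which encodes the joint lubricant lubricin (0.94 and 0.94). Tgfbr1 was closest to Gm20056, a processed pseudogene (0.95 and 0.94), the proton pump subunit Atp6v1a (0.93 and 0.91) and the phosphate exporter Xpr1 (0.91 and 0.90). Fst was closest to the fibrillin Fbn2, a gene of the latency and activation list (0.89 and 0.89). These libraries fall into groups of day and diet and differ in depth, and the values only describe them.

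Among the 10 genes themselves, Tgfbr1 ran against Tgfbi (Pearson r = -0.80) and with Tgfbr2 (0.74) over the same libraries, and Inhba ran with Inhbb (0.75) and Tgfbi (0.75).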
